A study of Mus musculus with 8 samples.

Results

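The 31 genes described here encode the mitochondrial machinery of long-chain fatty acid oxidation (17 genes, called the beta oxidation members) and the citrate cycle with the subunits of pyruvate dehydrogenase (14 genes, called the citrate cycle members). They were picked by gene name, and no measured value entered the rule, although earlier results of these data were known when the list was made. In all, 23831 genes or transcripts were tested. All 31 were found on the array, by 40 probes, and Eci1 was listed under its older symbol Dci. The samples were wire-injured carotid arteries of miR-126-/-/ApoE-/- mice (4 animals) and of miR-126+/+/ApoE-/- mice (4 animals). Both genotypes are labelled ApoE-/-, a loss of apolipoprotein E that raises plasma cholesterol, and both were of mixed genetic background, female, 6 weeks old and on western-type diet. The arteries were taken 14 days after injury, when a neointima forms, and each animal gave 1 Agilent single-colour array. The labels give the genotype as miR-126-/- and name no Cre driver, promoter or cell type for the loss. The microRNA removed is enriched in endothelial cells, and its main strand is printed because its absence is the only labelled difference between the groups (RefSeq, GRCm38.p6, chr2:26591402-26591423, plus strand; capitals mark the seed, bases 2 to 8).
miR-126a-3p: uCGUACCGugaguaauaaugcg

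Fatty acids reach the mitochondrial matrix through the carnitine shuttle and are then shortened in repeated rounds by a dehydrogenase, a hydratase, a second dehydrogenase and a thiolase, each round releasing acetyl-CoA. Citrate synthase joins acetyl-CoA to oxaloacetate, and the cycle oxidises it to carbon dioxide while electrons pass to the respiratory chain. Pyruvate dehydrogenase supplies the same acetyl-CoA from glucose. These enzymes are abundant in brown fat, heart and oxidative skeletal muscle, and are also present in white fat, smooth muscle and endothelium.

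Signals are given on a log2 scale relative to the 75th percentile of each array's processed signals, so that 1 unit is a 2-fold difference. A value describes 1 probe, and levels of different probes are not set against each other. All 8 arrays lay on 1 slide, with between 57.2% and 62.7% of spots well above background, 0 saturated spots and correlations between arrays from 0.9595 to 0.9871. The slide held all miR-126-/- arrays in its row 2 and all miR-126+/+ arrays in its row 1, and an effect of the row cannot be told apart from one of genotype. Smooth muscle genes marked all 8 samples as vessel wall, with Acta2 averaging 7.65 ± 0.33 in miR-126-/- and 7.51 ± 0.12 in miR-126+/+ arteries (SD, n = 4 each). The endothelial gene Pecam1 averaged 1.81 ± 0.22 in miR-126-/- and 1.75 ± 0.11 in miR-126+/+ arteries (SD, n = 4 each). Pecam1 does not stand for its list, in which 19 of 20 endothelial genes were higher in miR-126-/- arteries, beside 51.7% of all genes. The median difference of that list was 0.30, and that of Pecam1 was 0.06 ± 0.13 (SE). Signal of the Apoe probe exceeded background on all 8 arrays, at 2.62 ± 0.27 in miR-126-/- and 1.996 ± 0.54 in miR-126+/+ arteries (SD, n = 4 each), and since its place relative to the deleted part is not known here, it does not check the ApoE-/- label. Fat and skeletal muscle transcripts were also present. Arrays miR-126-/- 1 and miR-126+/+ 2 stood apart by high skeletal muscle transcripts, and a patch of array miR-126-/- 4 was dim. Spots far below their level on every other array numbered 240 on array miR-126-/- 4 and 156 on array miR-126+/+ 3. Each remaining array had 1 to 11 of them. Whether those of array miR-126+/+ 3 form a patch was not tested.

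Every one of the 31 members had a higher mean signal in miR-126-/- than in miR-126+/+ arteries, 17 of 17 for beta oxidation and 14 of 14 for the citrate cycle, beside 51.7% of all genes tested. The median difference was 0.72 log2 units for beta oxidation (0.02 to 1.06 over its members) and 0.46 for the citrate cycle (0.14 to 0.77), against 0.0076 for all genes. No member passed the test: 0 of 17 and 0 of 14 had an adjusted p under 0.05 in limma's moderated test with Benjamini-Hochberg adjustment over all genes, where 0.0965% of genes did (23 genes). The adjusted p lay between 0.143 and 0.968 for beta oxidation and between 0.203 and 0.943 for the citrate cycle. Before adjustment, 13 of 17 and 8 of 14 members had p under 0.05 and were higher in miR-126-/- arteries, beside 6.76% of all genes. In 10 of 17 and 6 of 14 members all 4 miR-126-/- arrays lay above all 4 miR-126+/+ arrays, beside 4.04% of all genes. Members share a pathway and their values move together from array to array, so these counts do not add up independent observations. All members were well above background on all 8 arrays, so none entered through a single genotype. In whole arteries, fewer cells of a type and less RNA per cell cannot be told apart.

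**Figure D1:**
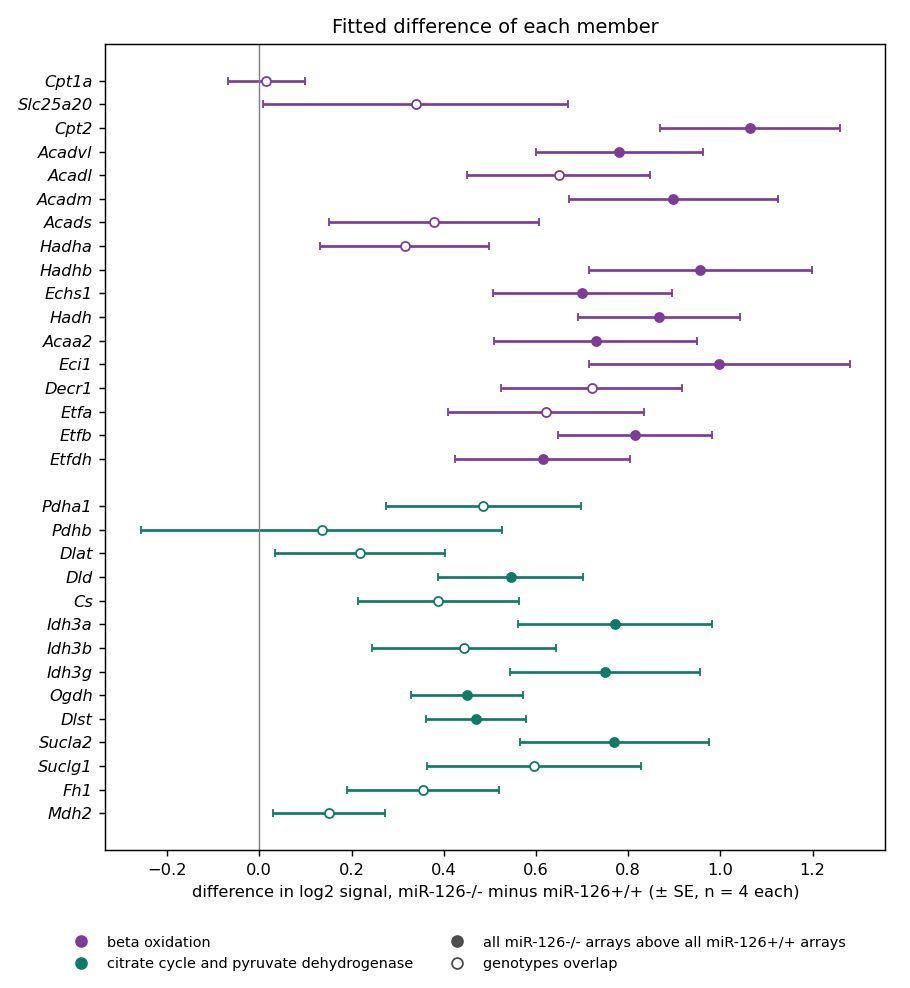
Fitted difference in log2 signal (horizontal axis, miR-126-/- minus miR-126+/+, points with SE bars, n = 4 each) of each member, ordered by its place in the pathway, with beta oxidation above and the citrate cycle below. Filled points mark the 16 members whose genotypes do not overlap, and the points run from 0.02 for Cpt1a to 1.06 for Cpt2.

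The carnitine shuttle held the largest and the smallest difference of the beta oxidation members. Cpt2, the inner membrane transferase that turns acylcarnitine back into acyl-CoA, gave log2 signals of 3.35, 3.64, 4.20 and 4.01 in miR-126-/- vessels (arrays 1 to 4), against 2.59, 2.79, 2.60 and 2.96 in miR-126+/+ arteries (probe at chr4:107576591-107576650, mm9). On this probe the lowest miR-126-/- value stood above the highest miR-126+/+ value. The difference was 1.06 ± 0.20 (SE), or 2.09-fold, with an adjusted p of 0.143 in limma's test. Cpt1a, the liver form of the outer membrane transferase that controls entry, gave 3.31, 3.41, 3.37 and 3.50 in miR-126-/- vessels, against 3.39, 3.29, 3.46 and 3.39 in miR-126+/+ arteries. The genotypes overlapped throughout, with a difference of 0.02 ± 0.08 (SE). That probe was printed as 10 spots, whose signals spread by only 0.034 to 0.088 log2 units (SD over 7 to 10 spots) within an array. Slc25a20, the carrier that exchanges acylcarnitine for carnitine across the inner membrane, averaged 0.71 ± 0.47 in miR-126-/- and 0.37 ± 0.58 in miR-126+/+ arteries (SD, n = 4 each). Array miR-126+/+ 1 stood at -0.49, below the other 7 arrays, which overlapped. The difference of 0.34 ± 0.33 (SE) was 0.15 without array miR-126-/- 4 and 0.052 without array miR-126+/+ 1.

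The acyl-CoA dehydrogenases, which open each round and differ in the chain length they prefer, ranked differently in the size of their difference. Acadvl, for very long chains, gave 5.80, 5.85, 6.31 and 6.20 in miR-126-/- vessels, against 4.89, 5.39, 5.18 and 5.57 in miR-126+/+ arteries (difference 0.78 ± 0.18, SE). Acadm, for medium chains, gave 4.73, 5.01, 5.36 and 5.28 in miR-126-/- vessels, against 3.69, 4.47, 4.06 and 4.57 in miR-126+/+ arteries (difference 0.90 ± 0.23, SE). Neither gene's genotypes overlapped, and array miR-126+/+ 1 was the lowest for both. Acadl, for long chains, averaged 2.89 ± 0.27 in miR-126-/- and 2.24 ± 0.34 in miR-126+/+ arteries (SD, n = 4 each). Acads, for short chains, averaged 1.04 ± 0.32 in miR-126-/- and 0.67 ± 0.39 in miR-126+/+ arteries (SD, n = 4 each). In both of these at least 1 miR-126+/+ array lay above the lowest miR-126-/- array, and their differences were 0.65 ± 0.20 and 0.38 ± 0.23 (SE). Unadjusted p was 0.0113 for Acadl and 0.134 for Acads in limma's test. The Acads difference was 0.22 without array miR-126-/- 4 and 0.19 without array miR-126+/+ 1.

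The next steps of the spiral are carried out by the trifunctional protein and by soluble matrix enzymes. Hadhb, the thiolase subunit of the trifunctional protein, gave 5.10, 5.17, 5.80 and 5.79 in miR-126-/- vessels, against 4.05, 4.75, 4.37 and 4.87 in miR-126+/+ arteries. All 4 miR-126-/- arrays were higher, and the difference was 0.96 ± 0.24 (SE). Hadha, which carries the hydratase and the dehydrogenase activity of the same protein, averaged 2.16 ± 0.29 in miR-126-/- and 1.84 ± 0.27 in miR-126+/+ arteries (SD, n = 4 each), and its genotypes overlapped (difference 0.32 ± 0.18, SE; 0.21 without array miR-126-/- 4). Taken within each array, the log2 signal of the Hadhb probe minus that of the Hadha probe shifted by 0.64 between miR-126-/- and miR-126+/+ arteries, with no overlap of the genotypes, so the probes of these partner subunits differed unequally between the genotypes. Each gene was measured by 1 probe. Hadh, the medium and short chain dehydrogenase, gave 3.72, 4.16, 4.24 and 4.08 in miR-126-/- vessels, against 2.86, 3.42, 3.001 and 3.44 in miR-126+/+ arteries (probe at chr3:130936889-130936948, mm9; difference 0.87 ± 0.18, SE). Every miR-126-/- value of Hadh was above every miR-126+/+ value, with an adjusted p of 0.169 in limma's test.

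Hadha and Hadhb lie head to head on mouse chromosome 5, Hadha on the minus and Hadhb on the plus strand. Their RefSeq starts are 272 bases apart. The stretch between the starts is printed because it is the shared upstream region of partner subunits whose probes shifted by unequal amounts (RefSeq, GRCm38.p6, chr5:30154981-30155252, plus strand, all in lower case since neither element searched for occurs in it; Hadha starts to the left and Hadhb to the right).
Hadha-Hadhb: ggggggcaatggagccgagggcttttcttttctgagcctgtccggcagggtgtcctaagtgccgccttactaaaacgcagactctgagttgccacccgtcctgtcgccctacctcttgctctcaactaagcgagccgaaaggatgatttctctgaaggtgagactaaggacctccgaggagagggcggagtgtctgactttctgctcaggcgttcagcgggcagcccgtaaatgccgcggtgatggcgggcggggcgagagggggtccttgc

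Among the other matrix enzymes, Echs1, the short chain enoyl-CoA hydratase, averaged 4.08 ± 0.24 in miR-126-/- and 3.38 ± 0.34 in miR-126+/+ arteries (SD, n = 4 each), without overlap. Acaa2, the thiolase that closes the round, gave 5.92, 6.02, 6.55 and 6.37 in miR-126-/- vessels, against 5.01, 5.70, 5.37 and 5.87 in miR-126+/+ arteries (difference 0.73 ± 0.22, SE). Its genotypes did not overlap, although the highest miR-126+/+ array came within 0.1 log2 units of the lowest miR-126-/- array. The Acaa2 probe was printed as 10 spots, with an SD over spots of 0.035 to 0.081 log2 units, which is below the spread between animals. One spot each of Acaa2 and Cpt1a lay in the dim patch of array miR-126-/- 4, and these spots were already left out of the values given, as marked outliers. Eci1 and Decr1, which handle the double bonds of unsaturated fatty acids, differed by 0.998 ± 0.28 and 0.72 ± 0.20 (SE). Decr1 gave 5.22, 5.47, 5.71 and 6.01 in miR-126-/- vessels, against 4.66, 4.93, 4.72 and 5.22 in miR-126+/+ arteries. The lowest miR-126-/- array and the highest miR-126+/+ array of Decr1 were nearly level, and so were those of Eci1, at 4.29 on array miR-126-/- 1 and 4.28 on array miR-126+/+ 4.

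Electrons from the acyl-CoA dehydrogenases pass to the flavoprotein Etfa-Etfb and from it, through Etfdh, to ubiquinone. Etfb gave 6.16, 6.37, 6.57 and 6.46 in miR-126-/- vessels, against 5.21, 5.68, 5.50 and 5.93 in miR-126+/+ arteries (probe at chr7:50713092-50713151, mm9). The genotypes were clear of each other, and the difference was 0.81 ± 0.17 (SE) with an adjusted p of 0.169 in limma's test. Etfa averaged 5.13 ± 0.33 in miR-126-/- and 4.51 ± 0.33 in miR-126+/+ arteries (SD, n = 4 each), with overlap (difference 0.62 ± 0.21, SE). Etfdh averaged 3.50 ± 0.35 in miR-126-/- and 2.89 ± 0.20 in miR-126+/+ arteries (SD, n = 4 each), without overlap by a narrow margin (difference 0.61 ± 0.19, SE). Within arrays, Etfb minus Etfa shifted by 0.19 and the genotypes overlapped, so the flavoprotein's subunits were not set apart in the way that Hadha and Hadhb were.

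Turning to the citrate cycle members, Idh3a and Idh3g, of the NAD-dependent isocitrate dehydrogenase, were among those with the largest differences. Idh3a, the catalytic subunit, gave 3.48, 3.48, 4.10 and 3.78 in miR-126-/- vessels, against 2.47, 3.19, 2.88 and 3.22 in miR-126+/+ arteries (probe at chr9:54451368-54451427, mm9; difference 0.77 ± 0.21, SE). Idh3g, a regulatory subunit encoded on the X chromosome, gave 5.09, 5.21, 5.65 and 5.36 in miR-126-/- vessels, against 4.50, 4.11, 4.68 and 5.02 in miR-126+/+ arteries (difference 0.75 ± 0.21, SE). Both genes separated the genotypes, Idh3g by the smaller margin. The other subunit, Idh3b, averaged 3.69 ± 0.32 in miR-126-/- and 3.25 ± 0.29 in miR-126+/+ arteries (SD, n = 4 each), with overlap and an unadjusted p of 0.0568 in limma's test. Taken within arrays, Idh3a minus Idh3b shifted by 0.33, and the genotypes did not overlap on this measure.

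The 2-oxoglutarate dehydrogenase complex showed smaller but narrow differences. Dlst, its succinyltransferase core, gave 4.02, 3.96, 4.30 and 4.25 in miR-126-/- vessels, against 3.58, 3.76, 3.60 and 3.72 in miR-126+/+ arteries (probe at chr12:86474710-86474769, mm9). This was the smallest p of the citrate cycle members, with no overlap, a difference of 0.47 ± 0.11 (SE) and an adjusted p of 0.203 in limma's test. Ogdh, the first enzyme of the complex, gave 4.98, 5.06, 5.33 and 5.26 in miR-126-/- vessels, against 4.48, 4.79, 4.72 and 4.85 in miR-126+/+ arteries (difference 0.45 ± 0.12, SE). Dld, the dehydrogenase subunit that this complex shares with pyruvate dehydrogenase, gave 2.55, 2.66, 3.04 and 3.04 in miR-126-/- vessels, against 2.19, 2.47, 2.42 and 2.04 in miR-126+/+ arteries (difference 0.55 ± 0.16, SE). On the brightest probes of all 3 subunits the miR-126-/- arrays lay above the miR-126+/+ arrays.

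Succinyl-CoA ligase pairs a shared alpha subunit, Suclg1, with the ATP-forming Sucla2 or the GTP-forming Suclg2. Sucla2 gave 4.43, 4.57, 5.10 and 4.80 in miR-126-/- vessels, against 3.52, 4.28, 3.88 and 4.13 in miR-126+/+ arteries (probe at chr14:73995311-73995370, mm9; difference 0.77 ± 0.20, SE). Suclg1 gave 4.08, 4.05, 4.81 and 4.59 in miR-126-/- vessels, against 3.38, 3.87, 3.69 and 4.20 in miR-126+/+ arteries (difference 0.60 ± 0.23, SE). Sucla2 showed no overlap, while for Suclg1 the highest miR-126+/+ array passed the lower pair of miR-126-/- arrays. Suclg2, which is not a member, averaged 0.57 ± 0.25 in miR-126-/- and 0.30 ± 0.20 in miR-126+/+ arteries (SD, n = 4 each). Citrate synthase, Cs, averaged 6.12 ± 0.21 in miR-126-/- and 5.73 ± 0.31 in miR-126+/+ arteries (SD, n = 4 each). Fumarase, Fh1, averaged 4.10 ± 0.34 in miR-126-/- and 3.75 ± 0.04 in miR-126+/+ arteries (SD, n = 4 each). Malate dehydrogenase, Mdh2, averaged 6.69 ± 0.17 in miR-126-/- and 6.54 ± 0.16 in miR-126+/+ arteries (SD, n = 4 each). The genotypes overlapped in all 3 of these genes, with differences of 0.39 ± 0.17 for Cs, 0.35 ± 0.16 for Fh1 and 0.15 ± 0.12 for Mdh2 (SE). Without array miR-126-/- 3 the difference of Fh1 was 0.21, and without array miR-126+/+ 1 that of Mdh2 was 0.095.

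The subunits particular to pyruvate dehydrogenase overlapped between genotypes. Pdha1, the X-linked alpha subunit, averaged 2.48 ± 0.32 in miR-126-/- and 1.99 ± 0.33 in miR-126+/+ arteries (SD, n = 4 each; difference 0.49 ± 0.21, SE). Dlat, the acetyltransferase core, averaged 1.09 ± 0.26 in miR-126-/- and 0.87 ± 0.30 in miR-126+/+ arteries (SD, n = 4 each; difference 0.22 ± 0.19, SE). Its difference was 0.12 without array miR-126-/- 3 and also 0.12 without array miR-126+/+ 1. Pdhb, the beta subunit, had the smallest difference of the citrate cycle members and the widest spread of all 31. Its brightest probe gave 3.92, 3.20, 4.70 and 4.60 in miR-126-/- vessels, against 3.96, 4.56, 4.12 and 3.23 in miR-126+/+ arteries, with a difference of 0.14 ± 0.39 (SE). Low values thus occurred in both genotypes, on arrays miR-126-/- 2 and miR-126+/+ 4. A second Pdhb probe gave 3.40, 3.49, 4.16 and 4.01 in miR-126-/- vessels, against 3.09, 3.45, 3.103 and 3.02 in miR-126+/+ arteries, with a difference of 0.60 ± 0.20 (SE). The probes read neighbouring positions, chr14:8998548-8998607 and chr14:8998505-8998562 (mm9), and share 15 bases. The brighter probe spread more, with SDs of 0.69 in miR-126-/- and 0.56 in miR-126+/+ arteries (n = 4 each), while those of the other probe were 0.38 in miR-126-/- and 0.19 in miR-126+/+ arteries. The ends that overlap are printed to show how close the probes lie, with the shared 15 bases in capitals (last 30 bases of the brighter probe, first 30 of the other).
Pdhb probe 1: ctaagaagtatattaTCTACATTTGCTGTT
Pdhb probe 2: TCTACATTTGCTGTTtaattgttttgataa

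Of the 31 members, 8 had more than 1 probe, and their 9 other probes differed between genotypes by -0.16 to 0.67 log2 units, 7 of them higher in miR-126-/- arteries. Cpt1a differed by 0.02 ± 0.08 (SE) on its brightest probe, and its second probe averaged -0.13 ± 0.14 in miR-126-/- and 0.03 ± 0.17 in miR-126+/+ arteries (SD, n = 4 each). The second probes of Cpt2 and Dld overlapped between genotypes, unlike their brightest probes, with differences of 0.67 ± 0.33 and 0.37 ± 0.22 (SE). With the mean of a gene's probes, 9 beta oxidation and 5 citrate cycle members showed no overlap, against 10 and 6 with the brightest. Only 1 other probe differed from the brightest by more than 0.5 log2 units. This was the third probe of Ogdh, which averaged 0.82 ± 0.17 in miR-126-/- and 0.94 ± 0.15 in miR-126+/+ arteries (SD, n = 4 each), while the second Ogdh probe repeated the brightest with a difference of 0.46 ± 0.11 (SE). The third probe lies at chr11:6258910-6258969 and the other Ogdh probes at chr11:6256583-6256642 and chr11:6256511-6256570 (mm9).

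**Figure D2:**
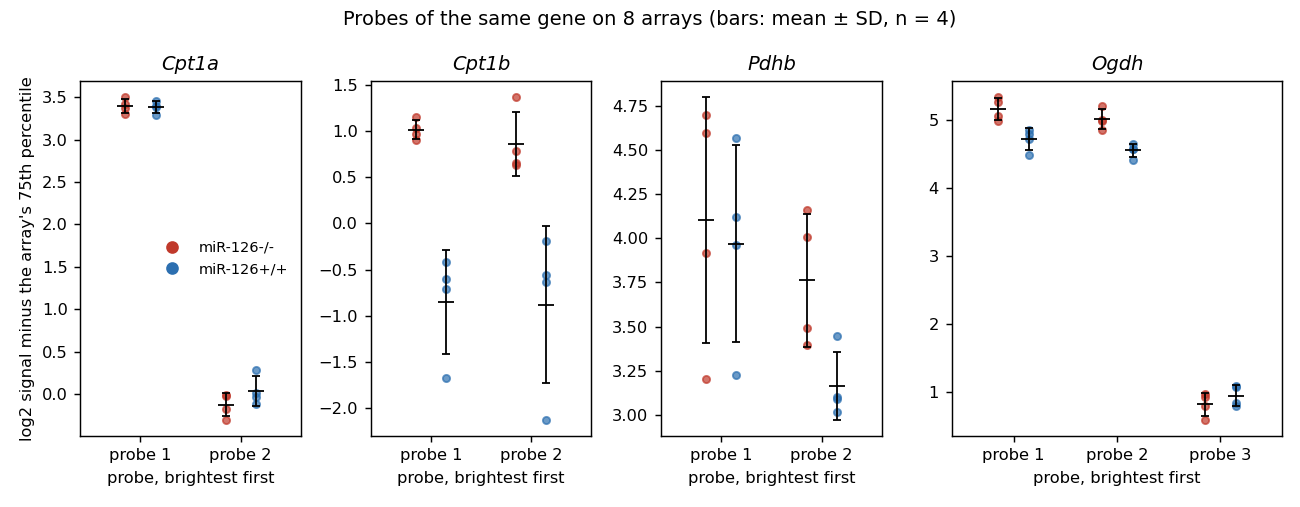
Log2 signal (vertical axis, scaled to the 75th percentile of the array) of each probe of Cpt1a, Cpt1b, Pdhb and Ogdh, with 1 point per array and the mean ± SD (n = 4) for miR-126-/- on the left and miR-126+/+ on the right of each pair. Both Cpt1a probes overlap between genotypes, both Cpt1b probes are higher in miR-126-/- arteries (differences 1.86 and 1.74), and the third Ogdh probe does not follow the first and the second.

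The members moved together from array to array within a genotype. Among miR-126-/- arteries, array 1 was the lowest for 25 of the 31 members, array 3 the highest for 22 and array 4 the highest for 9. Among miR-126+/+ arteries, array 1 was the lowest for 25 members and array 4 the highest for 21. With each gene centred over the 8 arrays, the beta oxidation members averaged 0.03, 0.18, 0.56 and 0.58 on the miR-126-/- arrays, against -0.72, -0.21, -0.42 and -0.0049 on the miR-126+/+ arrays. The citrate cycle members averaged 0.02, -0.01, 0.56 and 0.37 on the miR-126-/- arrays, against -0.45, -0.06, -0.26 and -0.16 on the miR-126+/+ arrays. The genotypes did not overlap on either mean, but the gap between array miR-126-/- 1 and array miR-126+/+ 4 in beta oxidation was far smaller than the range within either genotype. The same held for the citrate cycle gap between array miR-126-/- 2 (-0.01) and array miR-126+/+ 2 (-0.06).

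**Figure D3:**
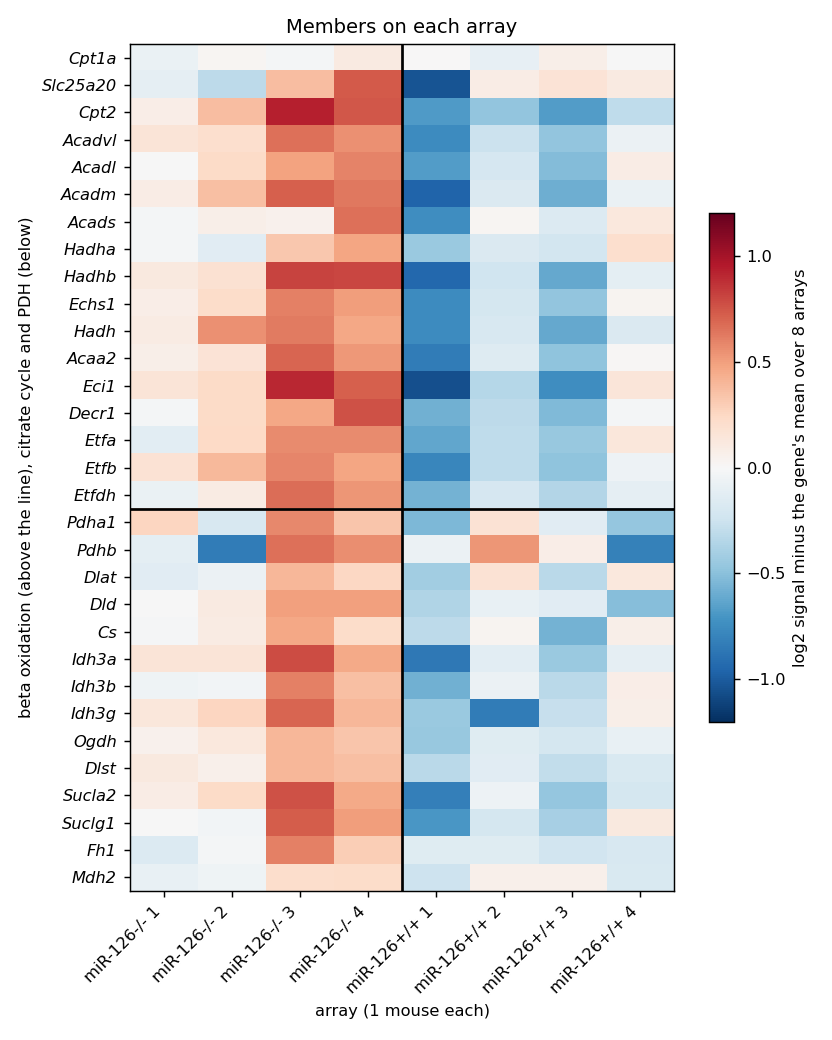
Log2 signal of each member (rows) on each array (columns, miR-126-/- left of the line and miR-126+/+ right of it), as the difference from the gene's mean over the 8 arrays, red for higher and blue for lower. Arrays 3 and 4 of miR-126-/- hold the highest values of all 31 members and array miR-126+/+ 1 the lowest values of 25.

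Around the members, the steps that activate fatty acids and bring them to the mitochondrion held the smallest adjusted p of the oxidation gene lists. Of 15 such genes, 10 were higher in miR-126-/- arteries, 6 of them at an unadjusted p under 0.05, and the list's median difference was 0.35. For this list and those that follow, the shares over all genes were 51.7% higher and 6.76% higher at that p. The share past the adjusted threshold in either direction was 0.0965%. Cpt1b, the muscle form of the outer membrane transferase, gave 0.97, 1.03, 1.15 and 0.91 in miR-126-/- vessels, against -1.67, -0.42, -0.71 and -0.60 in miR-126+/+ arteries. The genotypes were far apart, with a difference of 1.86 ± 0.26 (SE), or 3.64-fold, and an adjusted p of 0.0577 in limma's test, just outside the threshold. Taken within arrays, Cpt1b minus Cpt1a shifted by 1.85 with no overlap, so the forms of this transferase differed unequally between genotypes. Acacb, which makes the malonyl-CoA that inhibits the transferase, averaged 3.39 ± 0.43 in miR-126-/- and 2.33 ± 0.44 in miR-126+/+ arteries (SD, n = 4 each). Acsl1, which activates long-chain fatty acids, differed by 1.01 ± 0.33 and the fatty acid transporter Cd36 by 0.63 ± 0.23 (SE). Cpt1b is also in the brown fat marker list and Cd36 in the adipocyte list. Cpt1c, the brain form, averaged 0.37 ± 0.20 in miR-126-/- and 0.48 ± 0.12 in miR-126+/+ arteries (SD, n = 4 each).

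Peroxisomes shorten fatty acids by a separate set of enzymes, and 16 of their 18 genes were higher in miR-126-/- arteries, 12 at an unadjusted p under 0.05 and 0 at the adjusted threshold, with a median of 0.37. Ehhadh, the peroxisomal bifunctional enzyme, gave -0.03, -0.15, 1.13 and 1.27 in miR-126-/- vessels, against -1.88, -1.41, -1.85 and -0.60 in miR-126+/+ arteries. Its genotypes did not overlap (difference 1.99 ± 0.42, SE; adjusted p = 0.181 in limma's test), although each spread widely. Pex11a, which acts in peroxisome division, differed by 0.93 ± 0.21 and Decr2, the peroxisomal dienoyl-CoA reductase, by 0.30 ± 0.07 (SE). Among 25 tested genes of other mitochondrial acyl-CoA oxidation, mostly of branched-chain amino acids, 23 were higher in miR-126-/- arteries and 14 had an unadjusted p under 0.05, with a median of 0.32. Examples were Hibch (1.08 ± 0.26), which acts in valine breakdown, Ivd (0.87 ± 0.20) and Mccc1 (0.69 ± 0.18), which act in leucine breakdown, and Pccb (0.63 ± 0.14, SE), a subunit of propionyl-CoA carboxylase.

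Among 22 other genes of the citrate cycle and pyruvate handling, 21 were higher in miR-126-/- arteries and 9 had an unadjusted p under 0.05, with a median of 0.28. Pcx, the pyruvate carboxylase that refills the cycle, differed by 1.25 ± 0.36, Mpc2, a subunit of the mitochondrial pyruvate carrier, by 0.53 ± 0.15, and Sdhc, a membrane anchor of succinate dehydrogenase, by 0.39 ± 0.11 (SE). The 1 gene that was lower was Sdha, the flavoprotein of succinate dehydrogenase, at 4.39, 4.50, 4.83 and -1.58 in miR-126-/- vessels, against 4.08, 4.45, 4.16 and 4.46 in miR-126+/+ arteries. Its spot lay in the dim patch of array miR-126-/- 4, and on the other 3 miR-126-/- arrays it lay within or above the miR-126+/+ range. Of 6 kinases and phosphatases that switch pyruvate dehydrogenase off and on, 4 were higher. The kinase Pdk4 gave 3.09, 2.96, 3.48 and 2.23 in miR-126-/- vessels, against 0.65, 1.41, 1.87 and 2.49 in miR-126+/+ arteries (difference 1.34 ± 0.41, SE, with overlap). The kinase Pdk2 differed by 0.73 ± 0.20 and the phosphatase Pdp2 by 0.71 ± 0.13, both without overlap, and the phosphatase Pdp1 by -0.29 ± 0.16 (SE). Kinases and a phosphatase of opposite action thus were higher in the same arteries.

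Among 34 subunits of the respiratory chain 33 were higher in miR-126-/- arteries, 23 at an unadjusted p under 0.05, with a median of 0.36. Glycolysis differed in its counts: 12 of 21 genes were higher, 2 had an unadjusted p under 0.05 and were higher, 1 was lower at that level, and the median was 0.03. No gene of either list passed the adjusted threshold, and the difference between the lists was not tested.

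Of 21 regulators of these genes, 16 were higher in miR-126-/- arteries and 5 had an unadjusted p under 0.05, with a median of 0.20 and 0 past the adjusted threshold. Ppara, the nuclear receptor that senses fatty acids and drives oxidation genes in liver, gave 1.36, 1.73, 1.23 and 1.15 in miR-126-/- vessels, against -1.19, 0.26, -0.24 and 0.61 in miR-126+/+ arteries. Its genotypes did not overlap, with a difference of 1.51 ± 0.36 (SE) and an adjusted p of 0.218 in limma's test. Esrra, an estrogen-related receptor, averaged 3.17 ± 0.11 in miR-126-/- and 2.89 ± 0.09 in miR-126+/+ arteries (SD, n = 4 each), without overlap. The coactivators Ppargc1a and Ppargc1b, which act with both kinds of receptor, differed by 0.57 ± 0.23 and 1.30 ± 0.39 (SE), with overlap. Ppargc1b was well above background on 4 of 4 miR-126-/- and 3 of 4 miR-126+/+ arrays, and Ppargc1a is also in the brown fat marker list.

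Promoter windows from RefSeq (GRCm38.p6, 250 bases before to 50 after each start) were at hand for 28 of the 31 members and were searched on both strands. The estrogen-related receptor element TNAAGGTCA occurred in 0 of these 28 members, and in 1.28% of all 32851 promoters (1.43% of genes). That share is too small for 0 of 28 to set the members apart. The nuclear respiratory factor element GCGCATGCG occurred in 3 of 28 members, and in 1.75% of all promoters (1.95% of genes). In Etfdh it was matched on both strands over overlapping bases. A match describes letters and not binding. The 3 stretches are printed 5′ to 3′ along the gene with the element in capitals: Etfdh at chr3:79628862-79628921 (minus strand), Acadm at chr3:153944769-153944828 (minus strand) and Ogdh at chr11:6292498-6292557 (plus strand, in 2 of its 6 windows).
Etfdh: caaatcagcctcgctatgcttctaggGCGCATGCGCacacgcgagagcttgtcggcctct
Acadm: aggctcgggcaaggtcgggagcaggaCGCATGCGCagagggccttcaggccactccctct
Ogdh: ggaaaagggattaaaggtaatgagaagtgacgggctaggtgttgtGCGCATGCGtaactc

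Fat cell transcripts differed between genotypes in the same direction as the members. All 30 adipocyte markers were higher in miR-126-/- arteries, 24 at an unadjusted p under 0.05, with a median difference of 1.33 and 0 past the adjusted threshold. The list's centred mean was 0.13, 0.47, 0.78 and 0.98 on the miR-126-/- arrays, against -1.10, -0.31, -1.16 and 0.21 on the miR-126+/+ arrays. As with the beta oxidation members, array miR-126-/- 1 was the lowest of its genotype and array miR-126+/+ 4 the highest of its own, and here those arrays overlapped. The lowest adipocyte mean was on array miR-126+/+ 3, and the lowest beta oxidation mean on array miR-126+/+ 1. For the citrate cycle members the order differed, with array miR-126-/- 2 the lowest and array miR-126+/+ 2 the highest of its genotype. Adipoq, the adipocyte hormone adiponectin, gave 4.55, 5.09, 5.59 and 5.77 in miR-126-/- vessels, against 3.30, 3.86, 3.62 and 5.34 in miR-126+/+ arteries. Lep was well above background on 4 of 4 miR-126-/- and 2 of 4 miR-126+/+ arrays. In a fit with the adipocyte mean of each array as a covariate, the median difference of the beta oxidation members was 0.0999 with 12 of 17 higher, and that of the citrate cycle members was 0.155 with 10 of 14 higher. Under that limma fit every member's adjusted p rounded to 0.9999, and 0 of 23831 genes were called. Its unadjusted p was under 0.05 for 1 of 17 beta oxidation and 0 of 14 citrate cycle members. The covariate itself differed between genotypes, so this fit cannot tell fat content apart from genotype.

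Of 14 tested brown fat markers 12 were higher in miR-126-/- arteries, 7 at an unadjusted p under 0.05, with a median of 0.89. Ucp1, the uncoupling protein of brown fat, gave 4.01, 2.82, 5.28 and 3.96 in miR-126-/- vessels, against -0.53, 4.01, 3.09 and 0.72 in miR-126+/+ arteries. Values on arrays miR-126+/+ 2 and 3 thus lay within the miR-126-/- range, and the difference was 2.19 ± 1.01 (SE). Cidea, which is in both fat lists, differed by 1.90 ± 0.43 (SE) without overlap. Differences in the list ran from -0.46 to 2.19. Cox7a1, Cox8b, Kcnk3 and Otop1 differed by 1.60 ± 0.48, 1.71 ± 0.51, 1.21 ± 0.25 and 1.44 ± 0.42 (SE). Dio2, Prdm16, Lhx8 and Zic1 overlapped between genotypes, with differences of 0.20 ± 0.28, 0.24 ± 0.15, 0.18 ± 0.21 and -0.17 ± 0.09 (SE). The list's mean ran from 0.21 to 0.71 in miR-126-/- arteries and from -1.27 to 0.17 in miR-126+/+ arteries, with array miR-126+/+ 1 the lowest, as for the members. The order of the other arrays differed from that of the beta oxidation members. Brown fat means were 0.54, 0.21, 0.71 and 0.38 on miR-126-/- arrays 1 to 4, and the highest miR-126+/+ mean was on array 2.

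Skeletal muscle transcripts did not follow genotype. Of 28 tested markers 23 were higher in miR-126-/- arteries, but 0 had an unadjusted p under 0.05, and the list's mean was 2.69, 0.08, -1.21 and -0.89 on the miR-126-/- arrays, against -1.46, 2.09, 0.21 and -1.50 on the miR-126+/+ arrays. One array of each genotype, miR-126-/- 1 and miR-126+/+ 2, thus stood apart. Without these arrays the median difference was 0.87 for the beta oxidation and 0.56 for the citrate cycle members, with 17 of 17 and 14 of 14 higher. Among 20 smooth muscle genes 12 were higher and 1 had an unadjusted p under 0.05, and among 19 tested macrophage genes 7 were higher. Endothelial genes were higher in 19 of 20 cases, 7 at an unadjusted p under 0.05, with a median of 0.30. The part of the adipocyte transcripts in the members' values could not be told apart from genotype. That of the brown fat, smooth muscle, macrophage and endothelial transcripts was not tested.

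**Figure D4:**
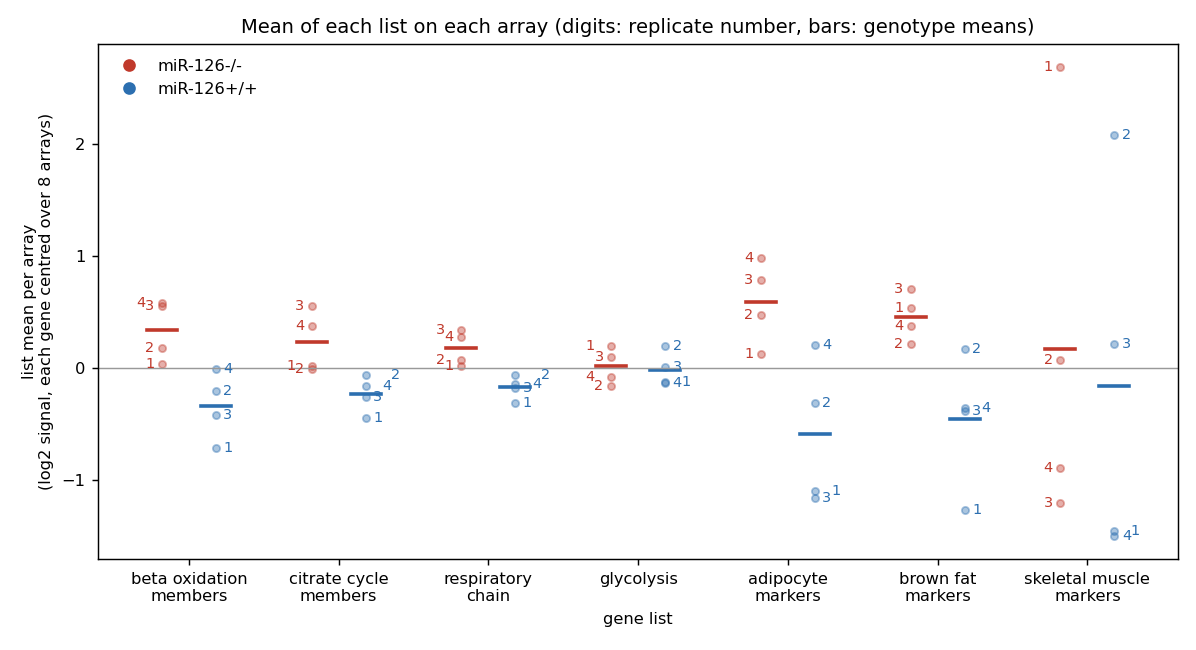
Mean of each gene list on each array (vertical axis, log2 signal with each gene centred over the 8 arrays), with miR-126-/- on the left and miR-126+/+ on the right of each pair, digits for the replicate number and bars for genotype means. The beta oxidation, citrate cycle, respiratory chain and brown fat means do not overlap between genotypes. For brown fat the lowest miR-126-/- mean is 0.21 and the highest miR-126+/+ mean 0.17. The adipocyte means overlap by 1 miR-126+/+ array. The skeletal muscle means of miR-126-/- 1 (2.69) and miR-126+/+ 2 (2.09) stand above the other arrays.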

How the data were processed

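Per the labels' protocols, 100 ng of total RNA per artery was converted to Cy3-labelled cRNA for Agilent mouse arrays. Per the submitters' processing notes, Agilent Feature Extraction 10.7.3.1 read them. The authors' deposited intensity values are processed signals, linear and background-subtracted, per the file headers, and the value table they deposited repeats these intensity values (column medians 41.7 to 57.5), linear, not centred or scaled between arrays. Its probes matched all 55681 probes of the scanner files. Positions are on mm9, per the file headers.

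Control and outlier spots were left out, spots of a probe were averaged, and log2 signals were scaled by each array's 75th percentile over probes (518.2 to 736.1 intensity units). Probes were kept if a genotype had at least 3 arrays well above background out of 4, and the brightest probe stood for its gene. RefSeq names were found for 47.4% of probes. Genotypes were compared with limma 3.58.1 (R 4.3.3, lmFit and eBayes, two-sided, Benjamini-Hochberg over 23831 genes, threshold 0.05), tested on simulated data. Python 3.11.15, pandas 2.3.3, numpy 2.4.6 and matplotlib 3.10.9 were used.

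The members, the other lists and the rule for named genes were chosen with earlier results of these data known. Values on every array are given for the 7 members of each set with the smallest p, those with the largest and smallest difference and those with a spot in the dim patch of array miR-126-/- 4, and for other lists up to 4 genes with the smallest p are named. A few genes that meet the rule are not reported here. Genes named outside the rule (Cpt1c, Suclg2, Sdha and the markers) were chosen after their values were seen. Members were described by counts and medians, without a test over the list. Alternatives covered background, scaling, filter, probe choice, weights, covariates, block and arrays left out.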

Additional observations from a re-analysis of the deposited data

Results flagged for a closer look

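Among 66 sets of 4 arrays checked (the members and the list means in each genotype), 2 held a value whose gap to its nearest neighbour took most of the range, beside about 1 in 20 from chance. Slc25a20 was -0.49 on array miR-126+/+ 1, against 0.63 to 0.70 on the other miR-126+/+ arrays. Acads was 1.51 on array miR-126-/- 4, against 0.83 to 0.92 on the other miR-126-/- arrays. Neither gene had a second probe, and the cause was not tested.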

How the results depend on the processing

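No member passed the adjusted threshold under any of 24 alternative settings, and of 744 member values 727 kept their direction. Cpt1a changed sign in 5 settings: -0.0045 with the percentile taken over always-detected probes, -0.073 with the mean of a gene's probes, -0.038 with normexp correction, and between -0.019 and 0.046 over the arrays left out in turn. Pdhb ran from -0.11 to 0.44 over those. With the adipocyte mean as a covariate, which itself differed between genotypes, the medians moved to 0.0999 (beta oxidation) and 0.155 (citrate cycle). In that fit 9 members changed sign: Slc25a20 (-0.34), Acadl (-0.00091), Acads (-0.20), Hadha (-0.19), Etfa (-0.041), Cs (-0.11), Idh3b (-0.11), Suclg1 (-0.065) and Dlat (-0.32). Leaving out each array in turn gave medians from 0.57 to 0.83 for beta oxidation and from 0.38 to 0.53 for the citrate cycle.

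The count over all genes, 23, was less stable. It was 11 with the percentile taken over always-detected probes, 6 with the filter on all 8 arrays, 12 with the deposited table, 12 with every probe, 10 with the mean of a gene's probes, 9 with no filter, 12 with quantile normalization, 5 with the skeletal muscle covariate, 73 with array weights, and 0 with the adipocyte covariate or without the 2 arrays highest in skeletal muscle markers. It ran from 0 (without miR-126-/- replicate 2) to 59 (without miR-126+/+ replicate 4) over the arrays left out. With the replicate number as a block it was 0. With each gene's genotype mean taken off, same-numbered arrays correlated at 0.20, -0.28, -0.04 and 0.0074. On the same measure, differently numbered arrays of opposite genotype ran from -0.33 to 0.40. These few values cannot decide whether the numbers pair the samples. With 4 animals per genotype the number of arrays limits the precision.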
